A study of Mus musculus with 10 samples.

Results

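The mitochondrial genome of the mouse carries 37 genes, and all of them were taken from the deposited tables as the genes whose GENCODE M21 symbol starts with mt-. They make up 37 of the 54408 genes in the tables: 13 messenger RNA genes, 2 ribosomal RNA genes and 22 transfer RNA genes. Of the 37, 15 had reads, and these were the 13 messenger and both ribosomal RNA genes. In the 8 libraries that entered the tests, the mitochondrial genes took 0.318% to 0.567% of the estimated reads. None of the 15 passed the gene test between any of the vector groups. Near-identical nuclear copies of 7 of the messenger RNA genes took nearly as many reads as all 15 genes together, and the division of reads between each mitochondrial gene and its copy differed from gene to gene and from library to library.

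The RNA came from CD8 T cells that carry a T cell receptor for the tumour antigen P1A. These cells were activated for 24 h, transduced with a retroviral vector, and given 24 h later to Rag1-/- B10D2 mice, which lack T and B cells of their own and bore P511 mastocytoma, a tumour of the mast cell lineage. On day 7 after the transfer, CD8 T cells were sorted from the tumours. The control vector encoded eGFP alone (libraries 3, 6 and 7), the NFAT5 vector encoded NFAT5, a transcription factor known for its part in the response to osmotic stress (libraries 1, 5 and 8), and the CA-RIT NFAT1 vector encoded a form of NFAT1 that is constitutively active and cannot cooperate with AP-1 (libraries 2, 4, 9 and 10). Both NFAT groups are therefore overexpression models driven by a retrovirus, in cells that had been activated in culture before transfer. The strain is labelled C57BL/6, which differs from the B10D2 recipients, and which of the cells or animals that label covers was not stated. The animals' ages and the number of mice per library are not stated either. Nothing in the labels ties each library to its own mouse, so every p-value given here measures the spread between samples that may in part be technical.

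The mitochondrial genome is a small circular DNA, present in many copies per cell, and both of its strands are transcribed as long precursors. Cleavage around the transfer RNAs that punctuate the precursors frees the ribosomal RNAs, which build the mitochondrial ribosome, and the messenger RNAs, which encode core subunits of respiratory complexes I, III and IV and of complex V, the ATP synthase. All other subunits, and the polymerase, processing enzymes and ribosomal proteins of the organelle, are encoded in the nucleus, and the transfer of mitochondrial DNA into chromosomes has left copies of its genes there. T cells draw on respiration for survival and memory, and impaired mitochondria are a known feature of exhausted T cells in tumours.

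Depth was between 18813300 and 36626300 estimated reads in 9 libraries and 51112 in eGFP control 7. Markers of CD8 T cells summed to 27806 to 43193 CPM in 8 libraries (CPM, a gene's reads relative to the library's reads on matched genes), to 469.6 CPM in eGFP control 7 and to 340.3 CPM in CA-RIT NFAT1 10. In the latter the 12 mast cell and P511 markers summed to 5121 CPM, with 6 of 12 detected and Fcer1a, Ms4a2, Hdc, Mcpt4, Tpsb2 and Tpsab1 at 0, and the 12 macrophage markers, all detected, summed to 4463 CPM. The same sums were 56.6 to 267 CPM and 100.0 to 447 CPM in the 8 libraries. eGFP control 3 also stood apart, over all genes and for several mitochondrial genes, as given below beside each result. Over all genes tested, the upper quartile of log2 fold changes against it alone was 3.33 for NFAT5 and 4.12 for CA-RIT NFAT1. Against eGFP control 6 alone it was 0.50 and 0.54. Tests and group means therefore left out CA-RIT NFAT1 10 and eGFP control 7, and values with all 10 are given where they differ. In sorted bulk samples, fewer cells of a type and less RNA per cell cannot be told apart.

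Copies of the mitochondrial genes lay side by side on the minus strand of chromosome 1 (GRCm38), between 24611535 and 24616197, a stretch of 4663 bases. There are 7 annotated transcripts in it, each matching 1 mitochondrial messenger RNA in the same order as on the mitochondrial genome. Gm28439 (chr1:24611535-24612410) equals the first 876 of the 1378 bases of mt-Nd4, Gm10222 (chr1:24612407-24612700) equals 294 of the 297 bases of mt-Nd4l, and Gm28437 (chr1:24613189-24613971) equals 783 of the 784 bases of mt-Co3. Gm10925 (chr1:24613974-24614651) equals 678 of the 681 bases of mt-Atp6, and Gm28661 (chr1:24614885-24615565) equals 681 of the 684 bases of mt-Co2. These 5 copies hold no difference from the mitochondrial gene over their length, so a read that lies within them can come from either place. Gm28438 (chr1:24612775-24613119) differs from mt-Nd3 at 1 base, T3C, and Gm29216 (chr1:24615706-24616197) covers bases 1054 to 1545 of mt-Co1 and differs at T1056A, C1057T, A1059G, A1060G, C1062A and A1066T. Positions are counted from 1 at the 5′ end of the mitochondrial transcript, whose base is given first. In all, 24 nuclear transcripts share at least 1 stretch of 31 bases with a mitochondrial gene, and the 17 others had at most 85.1 estimated reads each over all 10 libraries.

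The sequences below, from the GENCODE M21 transcripts, show how little separates each gene from its copy. In the first 4, capitals mark the bases that differ between the 2 members of a pair.
mt-Nd3, bases 1 to 36: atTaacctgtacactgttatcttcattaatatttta
Gm28438, bases 1 to 36: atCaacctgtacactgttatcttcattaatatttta
mt-Co1, bases 1054 to 1089: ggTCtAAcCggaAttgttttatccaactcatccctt
Gm29216, bases 1 to 36: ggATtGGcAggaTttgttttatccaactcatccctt
In the next 4, capitals mark the bases of the mitochondrial transcript that lie past the end of its copy.
mt-Co3, bases 749 to 784: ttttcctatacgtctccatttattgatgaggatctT
Gm28437, bases 749 to 783: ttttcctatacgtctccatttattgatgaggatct
mt-Atp6, bases 646 to 681: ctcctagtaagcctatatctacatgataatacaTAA
Gm10925, bases 646 to 678: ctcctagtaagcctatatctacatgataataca
For mt-Co3 the single base T, and for mt-Atp6 the stop codon TAA, are all that the annotated copy lacks.

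The division of reads between gene and copy did not follow these differences in an even way. Of the reads of mt-Nd4 and Gm28439, 95.2% to 98.1% (median 97.1%) were given to the mitochondrial gene, and for mt-Nd4l and Gm10222 it was 81.0% to 99.1% (median 90.2%). For mt-Co3 the mitochondrial gene received 5.31% to 12.0% of the pair's reads (median 9.00%), and for mt-Atp6 it received 5.03% to 10.6% (median 7.23%). The reads of mt-Co2 and Gm28661 were divided almost evenly, with 45.5% to 58.9% on the mitochondrial gene (median 50.9%). For mt-Nd3, set apart from its copy by 1 inner base and the stop codon, the share was 8.19% to 22.0% (median 18.4%). For mt-Co1, of which the copy covers 31.8%, it was 56.5% to 75.5% (median 73.5%). Because the copies are identical over most of their length, the level of these 7 genes depends on how Salmon divided shared reads, and each is given both as assigned and with the reads of its copy added. The sum also counts any RNA made from chromosome 1, whose amount these tables do not separate.

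**Figure D1:**
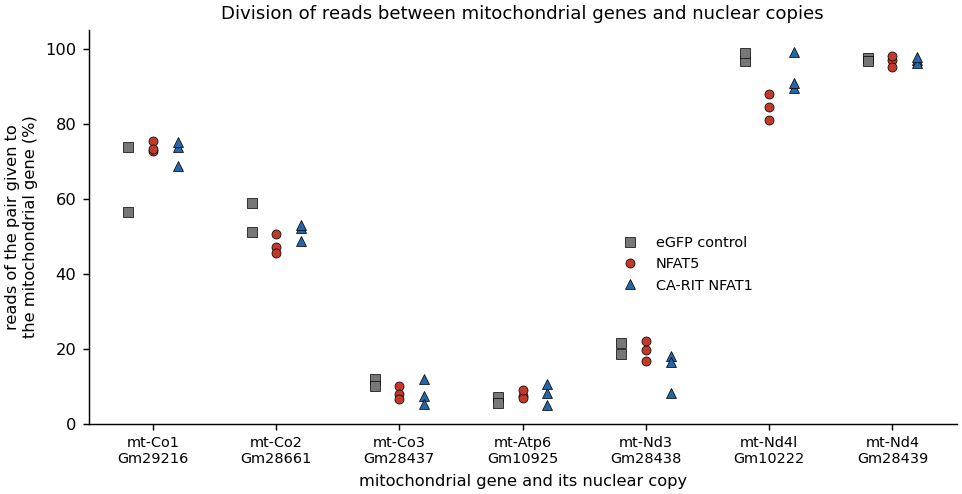
Percentage of the estimated reads of each gene and copy pair that was given to the mitochondrial gene (y axis), for 7 pairs (x axis) in 8 libraries; each point is 1 library, coloured by vector group. mt-Nd4 and mt-Nd4l sit above 80%, mt-Co3 and mt-Atp6 sit at 12.0% or below, and eGFP control 3 is the lowest point for mt-Co1 (56.5%) and the highest for mt-Co2 (58.9%).

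By library, the share of a pair given to the mitochondrial gene was steadiest for mt-Nd4. For mt-Co1 it was 56.5% and 73.8% in the eGFP control libraries, 75.5%, 72.7% and 73.2% in the NFAT5 libraries and 68.9%, 73.9% and 75.2% in the CA-RIT NFAT1 libraries. The value of eGFP control 3 lay apart from the other 7 libraries, and Gm29216 was at 961 CPM in that library against 263 to 462 CPM in the others. For mt-Nd3 the share was 18.7% and 21.4% in the eGFP control libraries, 19.6%, 16.6% and 22.0% in the NFAT5 libraries and 8.19%, 18.1% and 16.4% in the CA-RIT NFAT1 libraries. CA-RIT NFAT1 2 was the lowest library for mt-Nd3 and for mt-Atp6, at 8.19% and 5.03%. For mt-Co3 the shares were 12.0% and 10.0% in the eGFP control libraries, 10.0%, 7.99% and 6.55% in the NFAT5 libraries and 7.29%, 5.31% and 11.9% in the CA-RIT NFAT1 libraries, lowest in CA-RIT NFAT1 4 and highest in eGFP control 3.

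As assigned, the share of the estimated reads on the 15 genes was 0.464% and 0.424% in the eGFP control libraries, 0.465%, 0.563% and 0.422% in the NFAT5 libraries and 0.318%, 0.436% and 0.567% in the CA-RIT NFAT1 libraries. CA-RIT NFAT1 held both the lowest and the highest of the 8 libraries, so that the groups overlapped. The group means were 0.444% ± 0.0282 for eGFP control (SD, n = 2), 0.483% ± 0.0724 for NFAT5 (SD, n = 3) and 0.440% ± 0.125 for CA-RIT NFAT1 (SD, n = 3). Counting error was small beside this spread, with a 95% Wilson interval of 0.316% to 0.320% for CA-RIT NFAT1 2. Such intervals and the limits from 3 reads cover counting error only, since the reads carry no molecular identifiers in these tables. In CA-RIT NFAT1 10 the share was 0.315%, and in eGFP control 7, where it rested on 1368 reads, it was 2.68% (95% Wilson interval 2.54% to 2.82%).

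With the reads of the 7 copies added, the share was 0.845% and 0.755% in the eGFP control libraries, 0.857%, 1.00% and 0.756% in the NFAT5 libraries and 0.594%, 0.794% and 1.02% in the CA-RIT NFAT1 libraries. The means were then 0.800% ± 0.0637 (eGFP control, SD, n = 2), 0.871% ± 0.123 (NFAT5, n = 3) and 0.801% ± 0.211 (CA-RIT NFAT1, n = 3). The copies held 43.8% to 46.5% of the sum in each of the 8 libraries. The groups overlapped for both shares. Exact two-sided permutation tests were run on 4 quantities, the share with and without copies, the ratio of ribosomal to messenger reads and the share of mt-Nd6, each in 3 contrasts, and the 12 tests gave p of 0.2 or more, and 0.8 or more after Benjamini-Hochberg adjustment. With 2 against 3 libraries the smallest p such a test can give is 0.2, and with 3 against 3 it is 0.1, so none of them could have passed 0.05 and they do not tell whether the groups differed.

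**Figure D2:**
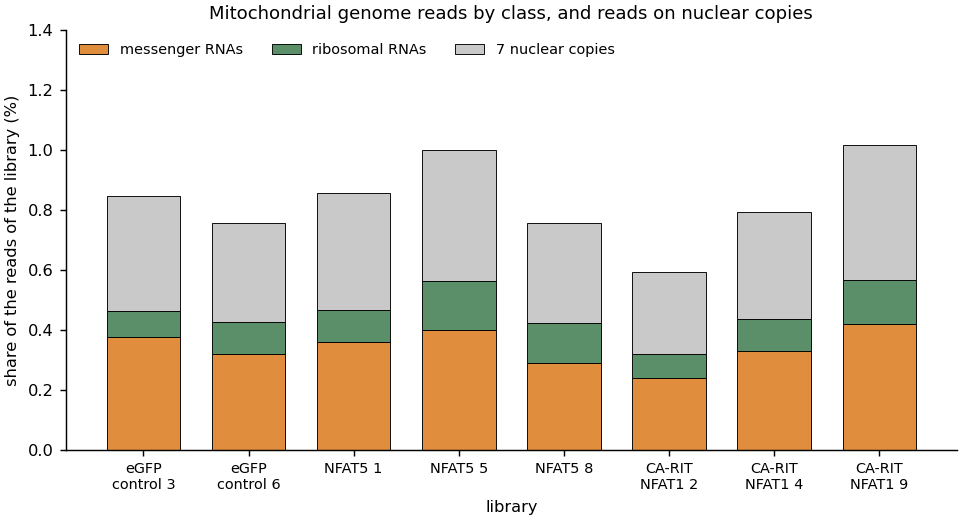
Estimated reads on mitochondrial genes as a percentage of all reads on matched genes (y axis, from 0) in 8 libraries (x axis), stacked as messenger RNA, ribosomal RNA and the 7 nuclear copies. CA-RIT NFAT1 2 has the lowest bar, at 0.594%, and CA-RIT NFAT1 9 the highest, at 1.02%, with the NFAT5 and eGFP control bars between them.

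All 22 transfer RNA genes were at 0 reads in all 10 libraries. They are 59 to 75 bases long, and Salmon's effective length for them, the adjusted length by which reads are divided for TPM, was 6 or 7. At this depth 0 reads allow a level of up to 0.0821 to 0.160 CPM in the 8 libraries (3 reads), and up to 58.7 CPM in eGFP control 7. Annotated transfer RNAs adjoin or overlap several messenger RNAs, such as mt-Ts1, which overlaps the last 3 bases of mt-Co1 on the other strand, and mt-Ti, which overlaps the last 2 bases of mt-Nd1. Whether uncut precursors or mature transfer RNAs were in the sorted cells is not measured by these values.

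Both ribosomal RNAs were detected in every deep library. mt-Rnr1, the RNA of the small mitochondrial ribosomal subunit (chrM:70-1024, plus strand), stood at 133 and 81.2 CPM in the eGFP control libraries, 82.7, 139 and 117 CPM in the NFAT5 libraries and 61.1, 93.5 and 170.2 CPM in the CA-RIT NFAT1 libraries. mt-Rnr2, the RNA of the large subunit (chrM:1094-2675, plus strand), stood at 761 and 957 CPM in the eGFP control libraries, 984, 1486 and 1209.7 CPM in the NFAT5 libraries and 718, 969 and 1296 CPM in the CA-RIT NFAT1 libraries. CA-RIT NFAT1 2 was the lowest library for both, and the 3 NFAT5 libraries lay above both controls for mt-Rnr2 and overlapped them for mt-Rnr1. After TMM scaling, the correction of library totals used in the gene tests, they overlapped them for mt-Rnr2 too. The ratio of mt-Rnr2 to mt-Rnr1 reads, not divided by length, was 5.73 and 11.8 in the eGFP control libraries, 11.9, 10.7 and 10.3 in the NFAT5 libraries and 11.8, 10.4 and 7.62 in the CA-RIT NFAT1 libraries. eGFP control 3 had the lowest ratio of the 8 libraries and NFAT5 1 the highest. Both RNAs come from the start of the same precursor.

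The ratio of ribosomal to messenger reads, as assigned, was 0.238 and 0.324 in the eGFP control libraries, 0.298, 0.406 and 0.459 in the NFAT5 libraries and 0.324, 0.322 and 0.349 in the CA-RIT NFAT1 libraries. Group means of this ratio were 0.281 ± 0.0607 (eGFP control, SD, n = 2), 0.387 ± 0.0820 (NFAT5, n = 3) and 0.332 ± 0.0149 (CA-RIT NFAT1, n = 3). eGFP control 3 had the lowest and NFAT5 8 the highest ratio, and NFAT5 overlapped both other groups. The mean log2 ratio differed from eGFP control by 0.46 for NFAT5 and 0.26 for CA-RIT NFAT1, with an exact two-sided permutation p of 0.4 in each contrast (0.8 after adjustment over the 12 tests). Without eGFP control 3 these differences were 0.23 and 0.033, and without eGFP control 6 they were 0.68 and 0.48. In TPM in place of reads they were 0.041 and -0.15, so the direction for CA-RIT NFAT1 turned. Most of the mitochondrial TPM was that of mt-Atp8. The mean over the 8 libraries was 1.32% of all TPM with it and 0.385% without it, and the ratio in TPM without mt-Atp8 was not taken. The ratio was 0.141 in CA-RIT NFAT1 10 and 0.00146, from 2 ribosomal reads, in eGFP control 7. Labels give total RNA as the molecule and a Clontech kit for the libraries, and whether ribosomal RNA was removed is not given in the sources used here, so the ratio in the cells cannot be read from these values.

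Complex I, which takes electrons from NADH, has 7 subunits encoded here, and their genes held 19.9% to 27.3% of the messenger reads as assigned and 10.1% to 14.0% with copies added. mt-Nd1 (chrM:2751-3707, plus strand) stood at 353 and 239.7 CPM in the eGFP control libraries, 278, 353 and 284 CPM in the NFAT5 libraries and 184, 313 and 368 CPM in the CA-RIT NFAT1 libraries. For mt-Nd2 (chrM:3914-4951, plus strand) the values were 80.9 and 82.2 CPM in the eGFP control libraries, 100.0, 145 and 107 CPM in the NFAT5 libraries and 55.2, 104 and 134 CPM in the CA-RIT NFAT1 libraries. The 3 NFAT5 libraries lay above both controls for mt-Nd2 and overlapped them for mt-Nd1, while CA-RIT NFAT1 spanned the controls for both.

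mt-Nd3 (chrM:9459-9806, plus strand) was assigned 4.21 and 9.53 CPM in the eGFP control libraries, 15.6, 15.1 and 19.1 CPM in the NFAT5 libraries and 2.08, 12.5 and 16.6 CPM in the CA-RIT NFAT1 libraries. It was the most variable of the 15 genes, with 9.21-fold between the highest library, NFAT5 8, and the lowest, CA-RIT NFAT1 2. With Gm28438 added the pair stood at 22.5 and 44.4 CPM in the eGFP control libraries, 79.9, 90.8 and 87.1 CPM in the NFAT5 libraries and 25.4, 69.2 and 101 CPM in the CA-RIT NFAT1 libraries. The lowest library was then eGFP control 3 and the highest CA-RIT NFAT1 9, 4.49-fold apart. Each NFAT5 library lay above both controls on either count.

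mt-Nd4l (chrM:9877-10173, plus strand) and mt-Nd4 (chrM:10167-11544, plus strand) share 7 bases and are read from 1 messenger RNA. mt-Nd4l stood at 16 and 15.5 CPM in the eGFP control libraries, 17.6, 16.7 and 14.1 CPM in the NFAT5 libraries and 11.9, 18.5 and 20.7 CPM in the CA-RIT NFAT1 libraries. mt-Nd4 stood at 158 and 138 CPM in the eGFP control libraries, 144, 173 and 125 CPM in the NFAT5 libraries and 119.9, 153 and 179 CPM in the CA-RIT NFAT1 libraries, a range of only 1.50-fold from lowest to highest. With the copies added, mt-Nd4 ran from 124 to 183 CPM and mt-Nd4l from 13.3 to 20.9 CPM. All groups overlapped for mt-Nd4 on both counts. For mt-Nd4l they overlapped as assigned, and with Gm10222 added the 3 NFAT5 libraries lay above both controls in CPM, but not after TMM scaling.

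mt-Nd5 (chrM:11742-13565, plus strand), which has no copy among the 7, stood at 101 and 169 CPM in the eGFP control libraries, 219, 284 and 196 CPM in the NFAT5 libraries and 156, 242 and 264 CPM in the CA-RIT NFAT1 libraries. The 3 NFAT5 libraries lay above both controls, and eGFP control 3 was the lowest of the 8 libraries. mt-Nd6 (chrM:13552-14070, minus strand) is the only messenger RNA gene on the minus strand, and it shares 14 bases with the 3′ end of mt-Nd5. Its values were 31.5 and 41.6 CPM in the eGFP control libraries, 52.2, 58.9 and 45.0 CPM in the NFAT5 libraries and 25.8, 50.6 and 49.7 CPM in the CA-RIT NFAT1 libraries. Again the NFAT5 libraries lay above both controls. As a share of the messenger reads, mt-Nd6 was at 1.07% ± 0.323 in eGFP control (SD, n = 2), 1.49% ± 0.0541 in NFAT5 (n = 3) and 1.27% ± 0.240 in CA-RIT NFAT1 (n = 3). The exact two-sided permutation p for NFAT5 against eGFP control was 0.2. With 3 against 2 libraries the test as run gives this value, its smallest, whenever the groups do not overlap, so it says no more than that. Whether the counting used strand is not given in the sources used here, and without it, reads of mt-Nd6 and of the RNA of the opposite strand cannot be told apart.

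Complex III, which passes electrons to cytochrome c, has a single subunit encoded here. mt-Cytb (chrM:14145-15288, plus strand), cytochrome b, stood at 739 and 551 CPM in the eGFP control libraries, 607, 764 and 592 CPM in the NFAT5 libraries and 527, 667 and 782 CPM in the CA-RIT NFAT1 libraries. The highest library was 1.48 times the lowest, and all groups overlapped. mt-Cytb held 16.9% to 22.0% of the messenger reads as assigned, and 8.08% to 10.2% with copies added. In eGFP control 7 it was at 20429 CPM, from 1044 reads.

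Complex IV, cytochrome c oxidase, has its 3 catalytic core subunits encoded here. mt-Co1 (chrM:5328-6872, plus strand), which binds the haem groups, stood at 1249 and 1151 CPM in the eGFP control libraries, 1237, 1232 and 717 CPM in the NFAT5 libraries and 669, 896 and 1157 CPM in the CA-RIT NFAT1 libraries. With Gm29216 added it stood at 2209.5 and 1559 CPM in the eGFP control libraries, 1637, 1694 and 980.2 CPM in the NFAT5 libraries and 972, 1212 and 1539 CPM in the CA-RIT NFAT1 libraries. The controls then lay above all 3 CA-RIT NFAT1 libraries, and eGFP control 3, highest on both counts, was 2.27 times CA-RIT NFAT1 2.

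mt-Co2 (chrM:7013-7696, plus strand), the subunit that receives electrons from cytochrome c, stood at 554 and 329 CPM in the eGFP control libraries, 318, 373 and 307 CPM in the NFAT5 libraries and 289.8, 352 and 430.0 CPM in the CA-RIT NFAT1 libraries. eGFP control 3 was the highest library and the groups overlapped. With Gm28661 the values were 941 and 645 CPM in the eGFP control libraries, 673, 818 and 605 CPM in the NFAT5 libraries and 594, 675 and 812 CPM in the CA-RIT NFAT1 libraries. For mt-Co3 (chrM:8607-9390, plus strand) as assigned they were 195 and 164 CPM in the eGFP control libraries, 204, 175 and 108 CPM in the NFAT5 libraries and 96.3, 91.3 and 282 CPM in the CA-RIT NFAT1 libraries. With Gm28437 added the mt-Co3 pair stood at 1625 and 1639 CPM in the eGFP control libraries, 2037, 2186 and 1653 CPM in the NFAT5 libraries and 1322, 1720.0 and 2376 CPM in the CA-RIT NFAT1 libraries, so that the NFAT5 libraries lay above both controls, where they had overlapped them as assigned and did so again after TMM scaling.

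Complex V, the ATP synthase, has 2 membrane subunits encoded here, in transcripts that share 43 bases. mt-Atp8 (chrM:7766-7969, plus strand) stood at 189.6 and 253 CPM in the eGFP control libraries, 289, 317 and 264 CPM in the NFAT5 libraries and 214, 287 and 336 CPM in the CA-RIT NFAT1 libraries. mt-Atp6 (chrM:7927-8607, plus strand) stood at 78.2 and 60.6 CPM in the eGFP control libraries, 99.3, 101 and 113 CPM in the NFAT5 libraries and 47.9, 109 and 183 CPM in the CA-RIT NFAT1 libraries as assigned. With Gm10925 it stood at 1089 and 1130.3 CPM in the eGFP control libraries, 1363, 1479 and 1267 CPM in the NFAT5 libraries and 951, 1354 and 1726 CPM in the CA-RIT NFAT1 libraries. For mt-Atp8, and for mt-Atp6 on both counts, the 3 NFAT5 libraries lay above both controls, while CA-RIT NFAT1 overlapped them. The shared bases are in capitals in the 3′ part of mt-Atp8, shown because reads within them fit both genes.
mt-Atp8, bases 150 to 204: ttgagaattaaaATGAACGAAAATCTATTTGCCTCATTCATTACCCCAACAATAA

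**Figure D3:**
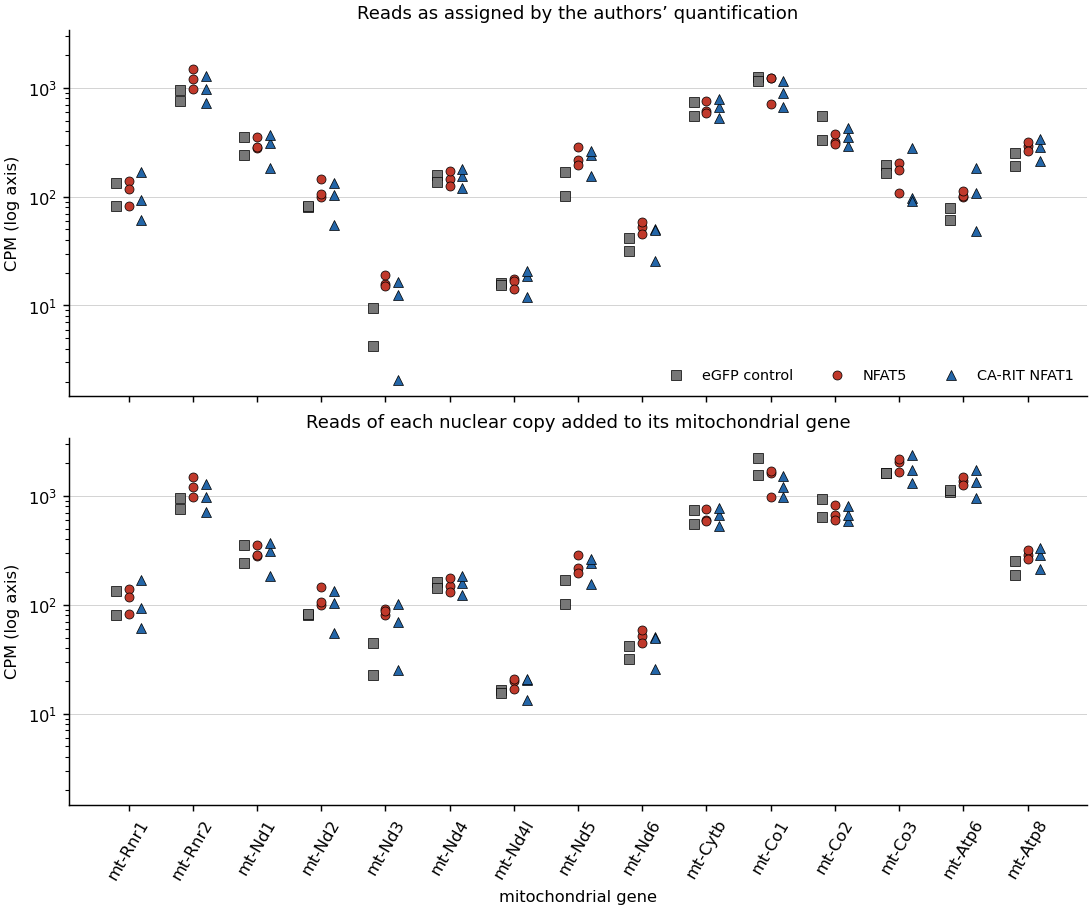
Level of the 15 mitochondrial genes with reads (x axis) in CPM on a log axis (y axis), in 8 libraries coloured by vector group, as assigned in one panel and with the reads of the copies added in the other. The range of mt-Nd3 narrows from 9.21-fold to 4.49-fold and that of mt-Atp6 from 3.82-fold to 1.81-fold when the copies are added.

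The 13 messenger RNAs also differ at their ends. In the annotated sequence 10 of them end in a stop codon, TAA or TAG, whereas mt-Co3, mt-Nd4 and mt-Cytb end in 1 base, T, past the last whole codon, and adding a poly(A) tail is known to complete such stop codons. The last 24 bases of these 3, with that base in capitals, are shown beside those of mt-Nd1, whose capitals are a full stop codon.
mt-Co3 end: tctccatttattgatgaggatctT
mt-Nd4 end: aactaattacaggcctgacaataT
mt-Cytb end: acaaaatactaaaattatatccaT
mt-Nd1 end: gcgggagtaccaccatacataTAG
The 3 genes did not stand together in the levels: per kilobase, with copies added, mt-Co3 was the first of the 15 genes, mt-Cytb the seventh and mt-Nd4 the eleventh.

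For the order of the genes, levels were taken per length; the ratios and shares of reads given elsewhere are not divided by length. In CPM per kilobase of transcript with copies added, the order of the medians over 8 libraries was mt-Co3 (2151), mt-Atp6 (1924), mt-Atp8 (1351), mt-Co1 (1003), mt-Co2 (985), mt-Rnr2 (617), mt-Cytb (557), mt-Nd1 (312), mt-Nd3 (214), mt-Nd5 (114), mt-Nd4 (112), mt-Rnr1 (110.3), mt-Nd2 (98.4), mt-Nd6 (91.3) and mt-Nd4l (61.8). Complex IV and V genes thus came before the complex III gene and all 7 complex I genes. Of the 14 steps between neighbours in this order, mt-Co3 over mt-Atp6, mt-Atp6 over mt-Atp8, mt-Co2 over mt-Rnr2, mt-Cytb over mt-Nd1, mt-Nd1 over mt-Nd3 and mt-Nd6 over mt-Nd4l held in each of the 8 libraries. mt-Atp8 over mt-Co1 and mt-Nd3 over mt-Nd5 held in 7, and mt-Rnr2 over mt-Cytb, mt-Rnr1 over mt-Nd2 and mt-Nd2 over mt-Nd6 in 6. The remaining neighbours did not differ in a stable way: mt-Nd5 over mt-Nd4 held in 5 libraries, mt-Nd4 over mt-Rnr1 in 4 and mt-Co1 over mt-Co2 in 3.

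As assigned, per kilobase, mt-Atp8 came first and mt-Nd3 last, mt-Co3 was the seventh (median 216) and mt-Atp6 the eighth (median 147). The place of these 2 genes therefore rested on the division of reads with their copies. On the deposited TPM scale mt-Atp8 ran from 5573 to 11580 TPM, and the gene with the second highest median, mt-Rnr2, from 479 to 949 TPM. Salmon's effective length for mt-Atp8 was 26 of 204 bases in every library, by which its TPM is divided. Mitochondrial genes held 0.919% to 1.62% of all TPM in the 8 libraries, and 0.295% to 0.459% without mt-Atp8. For mt-Co1 the median effective length, 1572, was longer than the transcript's 1545 bases.

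**Figure D4:**
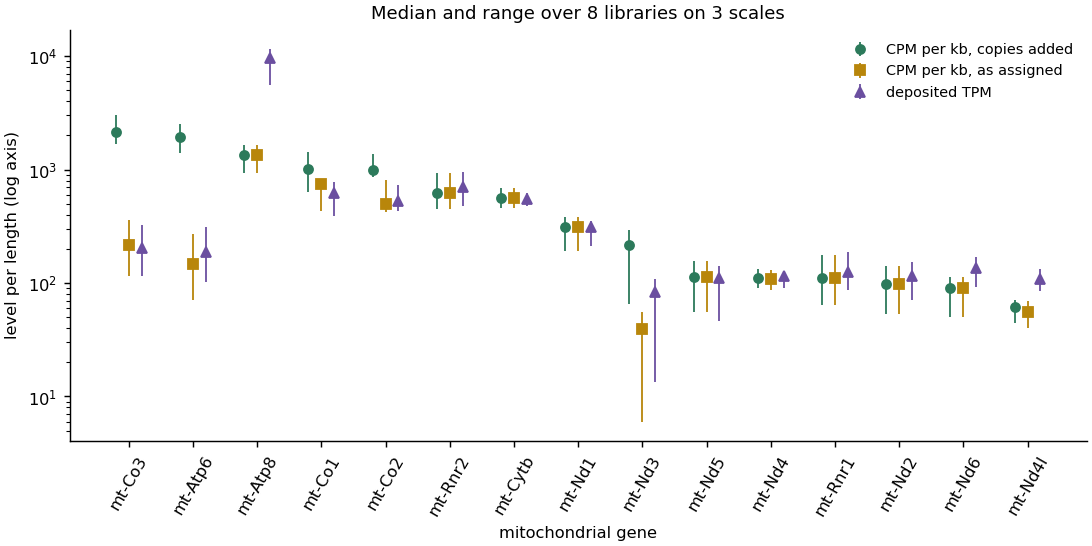
Level per length of the 15 genes (x axis), as CPM per kilobase with copies added, CPM per kilobase as assigned, and TPM, on a log axis (y axis); points are medians and bars the range over 8 libraries. mt-Co3 and mt-Atp6 lead with copies added, and mt-Atp8 leads as assigned and in TPM, where its median is 9704.

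In the comparison of NFAT5 with eGFP control, none of the 15 genes passed an adjusted p of 0.05 in edgeR's quasi-likelihood test, against 0% of the 14483 genes tested. At an unadjusted p under 0.05 it was 0 of the 15, against 7.26% of all genes. DESeq2 called none of the 15 (0.704% of all genes) and limma voom none (0% of all genes). The log2 fold changes had a median of -0.04, against 0.08 over all genes, and 7 of the 15 were on the higher side. Scaling by library totals alone put 11 of the 15 on the higher side, with the median of all genes at 0.18, and adding the copies put 9 there.

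The largest difference in this comparison was that of mt-Nd3, whose log2 fold change was 1.19 ± 0.82 (SE) with a 95% interval of -0.68 to 3.07 (adjusted p = 0.679, edgeR). mt-Nd5 followed at 0.70 ± 0.33, with an interval of -0.047 to 1.44 (adjusted p = 0.654, edgeR). The most negative values were those of mt-Co2, at -0.53 ± 0.30 (interval -1.22 to 0.15), mt-Co1, at -0.29 ± 0.32, and mt-Co3, at -0.26 ± 0.51. mt-Atp6 (0.47 ± 0.49), mt-Nd2 (0.42 ± 0.38), mt-Rnr2 (0.42 ± 0.31), mt-Nd6 (0.41 ± 0.36) and mt-Atp8 (0.29 ± 0.25) were on the higher side. With its copy added mt-Nd3 was at 1.27 ± 0.55 (unadjusted p = 0.0473, edgeR), which did not pass adjustment.

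For 7 of the 15 genes, every NFAT5 library had a higher CPM than both controls, namely mt-Rnr2, mt-Nd2, mt-Atp8, mt-Atp6, mt-Nd3, mt-Nd5 and mt-Nd6. Over all genes tested, 14.3% had all NFAT5 libraries above the controls and 22.4% were without overlap in either direction. None of the 15 had all NFAT5 libraries below the controls. With copies added it was 9 of 15, with mt-Co3 and mt-Nd4l as well. These counts used CPM without the TMM scaling of the tests. With CPM divided by the TMM factors, a choice made after seeing the data, it was 6 of 15 both as assigned and with copies added, against 11.8% of all genes tested, since mt-Rnr2, mt-Co3 and mt-Nd4l then overlapped.

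Each control weighed on these values. Without eGFP control 3, 12 of the 15 genes were on the higher side for NFAT5, mt-Nd3 was at 0.78 ± 0.92 and mt-Nd5 at 0.44 ± 0.37. Without eGFP control 6, which leaves eGFP control 3 as a lone control assumed to vary like the other groups, mt-Co2 as assigned was called lower, at -0.90 ± 0.27 (edgeR). It was 1 of 15 called in that fit, where 5.12% of the 16023 genes tested were called lower. mt-Nd5 was at 1.04 ± 0.38 there. In eGFP control 3, 58.9% of the reads of mt-Co2 and Gm28661 were on mt-Co2, the highest share of the 8 libraries. The call of mt-Co2 did not hold with copies added, where the most negative fold change of the 15 was -0.79.

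In the comparison of CA-RIT NFAT1 with eGFP control, which uses the same controls, none of the 15 genes was called (0% of all genes by edgeR), none had an unadjusted p under 0.05 (6.44% of all genes), and none was called by DESeq2 (0.421% of all genes) or limma voom (0%). The median log2 fold change was -0.0037, against 0.10 over all genes. As with NFAT5, 7 of 15 were on the higher side, 11 with library totals alone (median of all genes 0.21) and 9 with copies added. mt-Nd5 was at 0.61 ± 0.32 (interval -0.13 to 1.35), mt-Atp6 at 0.58 ± 0.49 and mt-Nd3 at 0.52 ± 0.80. On the lower side stood mt-Co1, at -0.52 ± 0.32 (interval -1.25 to 0.20), and mt-Co2, at -0.44 ± 0.30. The smallest adjusted p among the 15 was 0.680 (edgeR).

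All 15 genes overlapped between these groups in CPM as assigned, where 20.9% of all genes did not overlap. After TMM scaling all CA-RIT NFAT1 libraries lay below both controls for mt-Co1, as they did for 9.84% of all genes. With Gm29216 added, mt-Co1 was at -0.73 ± 0.33 (unadjusted p = 0.0531, edgeR) and all CA-RIT NFAT1 libraries lay below both controls. The nearest 2 were close, with eGFP control 6 at 1559 CPM and CA-RIT NFAT1 9 at 1539 CPM. With copies added, the most negative of the 15 fold changes was -0.37 without eGFP control 3 and -1.01 without eGFP control 6. The direction of several genes rested on 1 CA-RIT NFAT1 library. Without CA-RIT NFAT1 2, 12 of 15 genes were on the higher side, without CA-RIT NFAT1 9 it was 4, and without eGFP control 3 it was 12.

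Between CA-RIT NFAT1 and NFAT5 none of the 15 genes was called by edgeR (0% of all genes), DESeq2 (0.0069%) or limma voom (0%), and none had an unadjusted p under 0.05 (1.13% of all genes). All 15 overlapped in CPM, and 6.84% of all genes did not. The median log2 fold change was -0.074, against 0.0038 over all genes, and 4 of 15 were on the higher side, 5 with library totals alone and 1 with copies added. The most negative were mt-Nd3, at -0.68 ± 0.71 (interval -2.29 to 0.94), mt-Rnr2, at -0.32 ± 0.27, and mt-Nd6, at -0.31 ± 0.32. Without CA-RIT NFAT1 2, 11 of 15 were on the higher side, without NFAT5 5 it was 10, without NFAT5 8 it was 2, and without CA-RIT NFAT1 9 it was 0.

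**Figure D5:**
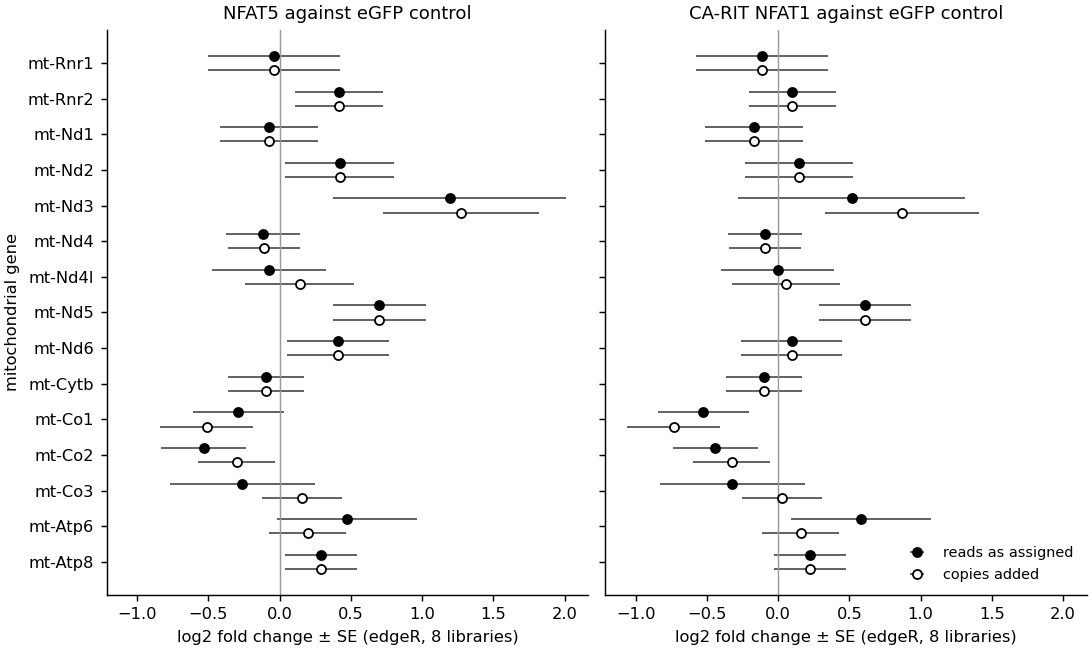
Log2 fold change (x axis) of the 15 genes (y axis) with its SE as a bar, for NFAT5 and for CA-RIT NFAT1 against eGFP control in 8 libraries, as assigned (filled) and with copies added (open). mt-Nd3 and mt-Nd5 lie farthest to the higher side with NFAT5, at 1.19 and 0.70, and no gene passed the adjusted threshold.

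The lowest and highest levels fell mostly on a few libraries. As assigned, CA-RIT NFAT1 2 was the lowest of the 8 libraries for 12 of the 15 genes and CA-RIT NFAT1 9 the highest for 8. NFAT5 5 was the highest for 4 genes. eGFP control 3 was the highest for mt-Co1 and mt-Co2 and the lowest for mt-Atp8 and mt-Nd5, so that 2 genes of complex IV and genes of complexes V and I stood at opposite ends in 1 library. Among markers of other cells in eGFP control 3, Lyz2, Adgre1 and Fcgr1 were at 0 and the 12 macrophage markers summed to 218 CPM. Such zeros were not particular to it. In eGFP control 6, Lyz2, C1qb, Mrc1, Fcgr1 and Chil3 were at 0, with a sum of 223 CPM. In NFAT5 5, C1qa, C1qb, Mrc1 and Cd14 were at 0, with a sum of 100 CPM. The part of these markers in the mitochondrial values was not tested.

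With all 10 libraries, none of the 15 genes was called in any comparison (0% of the 13793 genes tested in each), although 3 had an unadjusted p under 0.05 against eGFP control for NFAT5 (2.73% of all genes), 3 for CA-RIT NFAT1 (4.43%), and 0 between the 2 vectors (1.31%). These fits rest on eGFP control 7, where mt-Cytb was at 20429 CPM, mt-Atp6 at 4954 CPM and mt-Nd1 at 1252 CPM. The log2 fold change of NFAT5 was then -6.53 ± 2.15 for mt-Atp6, -5.95 ± 2.14 for mt-Cytb and -3.02 ± 1.14 for mt-Nd1. In the same library Gm10925, the copy of mt-Atp6, was at 36276 CPM.

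The messenger reads were also divided by complex. With copies added, complex IV genes held 52.0% to 63.2% of them, complex V 16.9% to 24.6%, complex I 10.1% to 14.0% and complex III 8.08% to 10.2%, in 8 libraries. As assigned, complex IV held 39.2% to 53.3% and complex V 7.15% to 13%. mt-Co1 alone was at 34.6% ± 1.85 of the messenger reads as assigned in eGFP control (SD, n = 2), 30.0% ± 4.91 in NFAT5 (n = 3) and 27.5% ± 0.353 in CA-RIT NFAT1 (n = 3). mt-Nd5 was at 2.69% and 5.27% in the eGFP control libraries, 6.12%, 7.08% and 6.79% in the NFAT5 libraries and 6.51%, 7.33% and 6.28% in the CA-RIT NFAT1 libraries, with eGFP control 3 apart from the other 7 libraries.

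Nuclear genes that serve the mitochondrial genome were taken as 10 lists of 257 genes, of which 253 were in the tables and 250 were tested. None was called in any comparison by edgeR, DESeq2 or limma voom over 8 libraries. At an unadjusted p under 0.05, 2 were on the higher and 4 on the lower side for NFAT5 against eGFP control (2.40% of them), 2 and 11 for CA-RIT NFAT1 against eGFP control (5.20%), and 0 between the vectors, each below the share of all genes given above. The counts moved with the control library used. Without eGFP control 6, 62 of the 250 genes were called for NFAT5 (20.6% of all genes tested) and 76 for CA-RIT NFAT1 (21.3% of all genes) against eGFP control 3 alone, and without eGFP control 3 none was called in either comparison.

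Among genes of transcription and its activators, 0 of 18 tested passed in either comparison with eGFP control, and their median log2 fold change was -0.25 for NFAT5 and -0.27 for CA-RIT NFAT1 (-0.16 in both without eGFP control 3). Tfam, which packages the mitochondrial DNA and starts its transcription, was at 66.3 ± 2.49 CPM in eGFP control (SD, n = 2), 83.9 ± 4.51 CPM in NFAT5 (n = 3) and 66.7 ± 13.1 CPM in CA-RIT NFAT1 (n = 3). Nrf1, an activator of nuclear genes of respiration, was at 97.9 ± 24.5, 104 ± 5.41 and 119 ± 12.7 CPM in the same order. Of the 25 processing and decay genes tested the median was 0.33 for NFAT5 and 0.37 for CA-RIT NFAT1, with Hsd17b10, a subunit of the enzyme that cuts transfer RNAs from the precursor at their 5′ end, at 89.7 ± 52.2, 55.2 ± 5.02 and 57.8 ± 10.5 CPM. Rexo2, which degrades short RNA fragments, was at 144 ± 48.3, 125 ± 22.0 and 122 ± 22.1 CPM. eGFP control 3 was the highest of the 8 libraries for Hsd17b10, at 127 CPM, and for Rexo2, at 178 CPM. Without it the medians of the processing genes were 0.041 and 0.082, and with it as the lone control 0.97 and 1.07.

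Genes of transfer and ribosomal RNA modification had a median of 0.072 for NFAT5 and 0.055 for CA-RIT NFAT1 (21 tested), and 0.032 and 0.069 without eGFP control 3 or 0.097 and 0.14 without eGFP control 6. Nsun2, an RNA methyltransferase, was at 135 ± 1.28, 162 ± 36.6 and 169 ± 23.0 CPM, in the order eGFP control, NFAT5 and CA-RIT NFAT1. Trnt1, which adds the CCA end to transfer RNAs, was at 88.5 ± 52.1, 62.3 ± 3.76 and 69.6 ± 3.67 CPM. For replication genes (17 tested) the medians were -0.027 and 0.21. Without eGFP control 3 they were -0.079 and 0.053, and without eGFP control 6 they were 0.24 and 0.38. Polg, the catalytic subunit of the mitochondrial DNA polymerase, was at 36.3 ± 42.7, 65.8 ± 18.6 and 69.0 ± 14.2 CPM, and Ssbp1, which binds single-stranded mitochondrial DNA, was at 83.3 ± 52.6, 48.9 ± 9.79 and 51.3 ± 8.19 CPM. eGFP control 3 was the highest library for Trnt1 (125 CPM) and Ssbp1 (120.4 CPM) and the lowest for Polg (6.09 CPM).

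The aminoacyl-tRNA synthetases, which charge transfer RNAs, had medians of 0.46 and 0.52 (19 tested). Without eGFP control 3 they were 0.18 and 0.10, and without eGFP control 6 they were 0.79 and 0.60. Lars2, the leucyl-tRNA synthetase of mitochondria, was at 5399 ± 5256, 9714 ± 959.8 and 9025 ± 665 CPM. It was lowest in eGFP control 3, at 1682 CPM, and highest in NFAT5 5, at 10790.5 CPM. Its transcripts share no stretch of 31 bases with a mitochondrial gene. Sequence shared with nuclear RNAs, ribosomal RNA among them, was not examined, so the source of its reads was not tested. Gars, which serves both the cytosol and mitochondria, was at 360.4 ± 0.787, 399.9 ± 9.50 and 406 ± 69.4 CPM.

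Genes of the mitochondrial ribosome and of the nuclear respiratory subunits had medians below 0 against eGFP control, on both vectors, where all genes had 0.08 and 0.10. For the 81 ribosomal protein genes tested the median was -0.37 for NFAT5 and -0.43 for CA-RIT NFAT1, with 10 on the higher side in each. Mrpl18 was at 221 ± 18.8, 220.5 ± 46.6 and 213 ± 43.9 CPM, and Mrpl4 at 175 ± 5.20, 153 ± 23.5 and 154 ± 14.3 CPM. For the 36 complex I genes the medians were -0.39 and -0.61, with 2 and 1 on the higher side, for the 9 complex III genes -0.20 and -0.53, for the 10 complex IV genes -0.29 and -0.54, and for the 14 complex V genes -0.25 and -0.49. None of these genes was called, and both medians of each list rest on the same 2 controls. Without eGFP control 3 the signs changed for NFAT5, where the medians were 0.11 for the mitochondrial ribosome and 0.20, 0.23, 0.22 and 0.21 for complexes I, III, IV and V, with all genes at 0.051. For CA-RIT NFAT1 they were then 0.028, 0.0023, 0.048, -0.0031 and -0.016, with all genes at 0.050. With eGFP control 3 as the lone control the medians in the same order were -0.72, -0.80, -0.60, -0.68 and -0.60 for NFAT5 and -0.78, -0.98, -0.93, -0.90 and -0.83 for CA-RIT NFAT1.

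Among the nuclear subunits, Ndufb7 and Ndufb8 of complex I were at 316 ± 148 and 303 ± 139.6 CPM in eGFP control, 246 ± 68.5 and 242 ± 56.9 CPM in NFAT5, and 211 ± 17.8 and 221 ± 44.0 CPM in CA-RIT NFAT1. Cox4i1, a nuclear subunit of complex IV, was at 771 ± 404, 549.8 ± 122 and 508 ± 70.5 CPM, and Cox6a1 at 537 ± 198, 474 ± 123 and 411 ± 87.6 CPM. Uqcrc1 of complex III was at 645 ± 98.6, 630.3 ± 97.2 and 578 ± 109 CPM, and Uqcrq at 407 ± 178, 327 ± 70.5 and 276 ± 54.3 CPM. Atp5b, the catalytic beta subunit of the ATP synthase, was at 1986 ± 212, 2178 ± 369 and 2096 ± 487 CPM, and Atp5a1, its alpha subunit, at 934 ± 104, 1218 ± 175 and 1146 ± 231 CPM. eGFP control 3 was the highest library for Ndufb7, Ndufb8, Uqcrq, Cox4i1 and Cox6a1 and the lowest for Atp5a1.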

How the data were processed

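RNA-seq of sorted CD8 T cells was deposited as 10 tables, 1 per library. The submitters' processing notes name Salmon 0.14.1 and the builds GRCm38.p6 and mm10; annotation release, options and trimming were not stated. Per the file headers, the authors' tables give each transcript's length, effective length, TPM and estimated reads. Tests used the deposited estimated counts, which divide shared reads among transcripts; the deposited TPM served for levels per length, and the deposited effective length, a quantity other than expression, to describe them.

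Of 140919 transcripts, 140045 were matched by ID to GENCODE M21 and 874 were not (at most 0.276% of a library's reads). Estimated counts were summed over 54408 genes and rounded for the tests; 105 duplicated symbols were replaced by gene IDs. CPM scale a gene's reads to those on all matched genes, with no TMM factor. Nuclear copies were GENCODE M21 transcripts sharing at least 90% of their 31-base stretches with a mitochondrial transcript.

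The gene tests came from edgeR 4.0.16 under R 4.3.3 (quasi-likelihood test, TMM scaling, default low-count filter, Benjamini-Hochberg adjustment at 0.05) in 1 fit of 3 groups over 8 libraries, without eGFP control 7 (depth) and CA-RIT NFAT1 10 (few CD8 T cell transcripts). This fit had a biological coefficient of variation of 0.725, against 0.934 with 10 libraries. Standard errors follow from the fold change and its test. Shares were compared by exact permutation. Alternatives were DESeq2 1.42.0, limma 3.58.1 voom with a quality weight per library, and other scalings and filters. All 10 libraries, the compared groups alone and each library left out were alternatives too. Adding the copies' reads, the alternatives for nuclear lists and the TMM-scaled overlaps were chosen after seeing the data. The fitting script was tested on simulated data, with 200 of 14483 genes changed for NFAT5 against eGFP control. Every simulated gene had the common spread of the 8-library fit, a biological coefficient of variation of 0.725. The test recovered 0% of genes changed by a log2 fold change of 1 in size, 2% at 2, 40% at 4 and 82% at 6. A gene that was not called may therefore still differ between groups. No 2 libraries held identical values.

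The members, the lists and the choice of 8 libraries were made with earlier results of these data known. Every mitochondrial messenger and ribosomal RNA is named, and transfer RNAs only with at least 10 reads in 3 libraries, which none reached; from each nuclear list the 2 members with the highest mean CPM are named, and any called. The lists were written from general knowledge: transcription and its activators, RNA processing and decay, transfer and ribosomal RNA modification, DNA replication and nucleotide supply, aminoacyl-tRNA synthetases, mitochondrial ribosomal proteins, and nuclear subunits of complexes I, III, IV and V. Marker lists covered CD8 T cells, mast cells or P511 tumour, macrophages or monocytes, neutrophils, dendritic cells, B cells and erythroid cells; in the 8 libraries the last 4 summed to at most 4.54, 180.3, 275 and 0.918 CPM.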

Additional observations from a re-analysis of the deposited data

Results flagged for a closer look

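In 40 sets of 4 values from the CA-RIT NFAT1 libraries, the gap between the most extreme library and its nearest neighbour was set against the range of the 4, and it was above Dixon's 95% critical value in 2, where chance gives about 1 in 20. The ratio of ribosomal to messenger reads of the mitochondrial genome was 0.141 in CA-RIT NFAT1 10, against 0.322 to 0.349 in the other 3 libraries. The share of mt-Co1 among the mitochondrial messenger reads was 17.0% in CA-RIT NFAT1 10, against 27.2% to 27.9%. That library did not enter the tests, and its markers of CD8 T cells summed to 340.3 CPM, those of mast cells or P511 tumour to 5121 CPM and those of macrophages to 4463 CPM. Their part in these 2 values was not tested.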

How the results depend on the processing

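Of 900 log2 fold changes of the 15 genes under alternatives, 803 kept their direction and their side of the adjusted 0.05 threshold, 96 changed direction without passing it, and 1 passed it (mt-Co2 lower in NFAT5 without eGFP control 6, adjusted p = 0.0475, edgeR). Counts of called mitochondrial genes were 0 in the other fits, copies added or not. Unless another quantity is named, the values given here are log2 fold changes that changed direction, and the causes were not tested.

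Library totals alone gave for NFAT5 against eGFP control 0.078 (mt-Rnr1), 0.040 (mt-Nd1), 0.037 (mt-Nd4l) and 0.020 (mt-Cytb); for CA-RIT NFAT1 against eGFP control 0.017 (mt-Rnr1), 0.11 (mt-Nd4l), 0.031 (mt-Nd4) and 0.031 (mt-Cytb); and for CA-RIT NFAT1 against NFAT5 0.011 (mt-Cytb). limma voom gave for NFAT5 against eGFP control 0.061 (mt-Rnr1) and for CA-RIT NFAT1 against NFAT5 -0.076 (mt-Atp6) and -0.049 (mt-Nd4). Without the low-count filter the values were for CA-RIT NFAT1 against eGFP control 0.015 (mt-Nd4l) and for CA-RIT NFAT1 against NFAT5 0.0021 (mt-Cytb), and in a fit of only the groups compared mt-Nd4l was at 0.015 for CA-RIT NFAT1 against eGFP control. Adding the reads of the copies gave for NFAT5 against eGFP control 0.16 (mt-Co3) and 0.14 (mt-Nd4l); for CA-RIT NFAT1 against eGFP control 0.028 (mt-Co3) and 0.058 (mt-Nd4l); and for CA-RIT NFAT1 against NFAT5 -0.025 (mt-Co2), -0.038 (mt-Atp6) and -0.081 (mt-Nd4l). With all 10 libraries the fit gave for NFAT5 against eGFP control 0.096 (mt-Rnr1), 0.076 (mt-Co1), -6.53 (mt-Atp6) and 0.055 (mt-Nd4); for CA-RIT NFAT1 against eGFP control -6.58 (mt-Atp6) and -0.28 (mt-Nd6); and for CA-RIT NFAT1 against NFAT5 -0.054 (mt-Atp6), 0.0027 (mt-Co3), -0.17 (mt-Nd4l) and -0.14 (mt-Nd4), and with the copies added as well for NFAT5 against eGFP control 0.096 (mt-Rnr1), 0.10 (mt-Co2), -5.91 (mt-Atp6), 0.61 (mt-Co3), 0.21 (mt-Nd4l) and 0.061 (mt-Nd4); for CA-RIT NFAT1 against eGFP control -6.00 (mt-Atp6), 0.30 (mt-Co3) and -0.28 (mt-Nd6); and for CA-RIT NFAT1 against NFAT5 -0.10 (mt-Co2), -0.096 (mt-Atp6), -0.31 (mt-Nd4l) and -0.14 (mt-Nd4). DESeq2, RLE and upper-quartile scaling, scaling from genes outside the mitochondrial genome and the stricter low-count filter changed no direction.

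Against eGFP control over all 10 libraries, the mitochondrial share of reads differed by -0.71 percentage points for NFAT5 and -0.78 for CA-RIT NFAT1. Both values rest on eGFP control 7. In TPM over the 8 libraries the differences were 0.32 and 0.29 percentage points. The mean TPM shares were 1.09% for eGFP control, 1.41% for NFAT5 and 1.38% for CA-RIT NFAT1. Without mt-Atp8 they were 0.364%, 0.404% and 0.380%, so most of the difference in TPM lay in that gene. The log2 difference in the ratio of ribosomal to messenger RNA was 2.98, 2.47 and -0.51 (CA-RIT NFAT1 against NFAT5) over all 10 libraries (0.46, 0.26 and -0.20 over 8), and 0.041 and -0.15 against eGFP control in TPM.

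Leaving out 1 library at a time gave 0 to 1 called mitochondrial genes for NFAT5 against eGFP control. The lowest and highest log2 fold changes of genes that changed direction were -0.39 to 0.46 (mt-Rnr1), -0.38 to 0.32 (mt-Nd1), -0.16 to 0.037 (mt-Nd4l), -0.26 to 0.074 (mt-Nd4) and -0.34 to 0.22 (mt-Cytb) for NFAT5 against eGFP control. For CA-RIT NFAT1 against eGFP control they were -0.61 to 0.38 (mt-Rnr1), -0.14 to 0.32 (mt-Rnr2), -0.46 to 0.24 (mt-Nd1), -0.15 to 0.46 (mt-Nd2), -0.81 to 0.080 (mt-Co2), -0.17 to 0.23 (mt-Nd4l), -0.24 to 0.095 (mt-Nd4), -0.076 to 0.38 (mt-Nd6) and -0.34 to 0.22 (mt-Cytb). For CA-RIT NFAT1 against NFAT5 they were -0.57 to 0.23 (mt-Rnr1), -0.31 to 0.17 (mt-Nd1), -0.57 to 0.027 (mt-Nd2), -0.070 to 0.24 (mt-Co2), -0.23 to 0.11 (mt-Atp8), -0.42 to 0.49 (mt-Atp6), -0.81 to 0.21 (mt-Co3), -0.099 to 0.29 (mt-Nd4l), -0.13 to 0.18 (mt-Nd4), -0.24 to 0.13 (mt-Nd5) and -0.15 to 0.15 (mt-Cytb). Of 45 fold changes, 12 changed direction without CA-RIT NFAT1 2, 12 without eGFP control 3, 7 without NFAT5 5, 7 without CA-RIT NFAT1 9 and 0 without eGFP control 6.

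No paired analysis was possible because the groups share no replicate numbers. Depth limits eGFP control 7, where 3 reads are 58.7 CPM, while in the 8 libraries the 95% counting interval of the mitochondrial share was narrower than the SD between libraries of each group.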
